A study of Mus musculus with 6 samples.

Results

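The genes described here are Atm, the gene that was knocked out, its relatives in the family of phosphatidylinositol 3-kinase-related kinases (Atr, Prkdc, Mtor, Smg1 and Trrap), and the proteins that work directly with them in DNA damage signalling (Atrip, Chek1, Chek2 and Nbn). They were chosen by gene symbol, and all 10 were found once each among the 13405 genes listed in every library. The libraries are RNA-seq of 4T1, a breast cancer cell line from a BALB/c mouse, grown in vitro: 3 of ATM KO cells and 3 of vector control cells. The labels name no guide, clone or targeted exon. They do not tell if replicates are separate cultures, and p-values then measure only the spread between libraries, which can be technical.

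ATM is recruited to DNA double-strand breaks by the MRE11-RAD50-NBS1 complex, of which Nbn encodes the NBS1 subunit, and passes the signal to the checkpoint kinase CHK2 (Chek2). ATR, held on single-stranded DNA at stalled replication forks by its partner ATRIP, activates the checkpoint kinase CHK1 (Chek1). The other relatives have different duties: Prkdc encodes the catalytic subunit of DNA-PK, which joins broken ends, mTOR senses nutrients and growth factors, SMG1 phosphorylates the nonsense-mediated decay factor UPF1, and TRRAP lacks kinase activity and serves as a scaffold of histone acetyltransferase complexes.

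Values are read counts that were divided by 1 factor per library before deposit (normalized counts), and behind them lie 32341508, 26223323 and 22494919 reads in ATM KO 1 to 3 and 29500267, 30042957 and 27264975 in vector control 1 to 3. The libraries did not sort by group along the first principal component, which carried 59.4% of the variance: ATM KO 2 (41.5) lay with vector control 1 (86.2), and ATM KO 3 (-50.7) with vector controls 2 (-36.9) and 3 (-37.0). Along the second, with 18.9%, the groups were apart, at -16.5, -13.7 and -43.8 in ATM KO 1 to 3 and 8.36, 32.9 and 32.8 in vector control 1 to 3. Vector controls 2 and 3 nearly coincided: 13.2% of genes with at least 20 reads differed between them beyond the sampling noise of reads, where noise alone gives 5%, against 69.6% to 83.6% for the other pairs within a group. They were kept as separate libraries because they differed by more than noise, which does not show that they are separate cultures. Their mean was also used as 1 library, with which no gene passed the threshold (limma, 0 of 12149, with 221 at an unadjusted p under 0.05). The median absolute log2 difference was 0.055 within this pair and 0.60 between vector control 1 and either of them, so the spread of the controls is mostly that of vector control 1 against the pair. All 6 epithelial markers were present, with summed values of 100300 to 136400 in ATM KO and 80380 to 114600 in vector control libraries. Of the immune, fibroblast and endothelial markers looked for, only Csf1r (438 to 1119 in ATM KO, 229 to 387 in vector control), Pdgfra, Col1a1 and Cdh5 were among the genes given. The part of these markers and of the library axis in the results was not tested.

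Atm and its neighbour Npat, which encodes a coactivator of histone gene transcription, lie head to head, and the sequence between them is shown because the 2 genes had similar values across the libraries. Promoter windows of 300 bases (250 before the start of the transcript and 50 after it) were taken from RefSeq on GRCm38.p6, where 8 of the 10 genes had one. The start sites of the windows of Atm and Npat lie 376 bases apart, and the windows share 125 bases, printed in capitals. The Atm window is chr9:53536622-53536921, minus strand, and the Npat window chr9:53536797-53537096, plus strand, so the capitals of one are the reverse complement of those of the other.
Atm: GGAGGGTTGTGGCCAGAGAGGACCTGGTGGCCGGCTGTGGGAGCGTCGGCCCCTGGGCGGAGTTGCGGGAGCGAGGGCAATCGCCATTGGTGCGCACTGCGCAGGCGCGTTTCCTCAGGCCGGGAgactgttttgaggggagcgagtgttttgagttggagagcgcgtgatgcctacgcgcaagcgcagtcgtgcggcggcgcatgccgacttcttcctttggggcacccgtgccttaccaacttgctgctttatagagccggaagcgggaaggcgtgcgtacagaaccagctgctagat
Npat: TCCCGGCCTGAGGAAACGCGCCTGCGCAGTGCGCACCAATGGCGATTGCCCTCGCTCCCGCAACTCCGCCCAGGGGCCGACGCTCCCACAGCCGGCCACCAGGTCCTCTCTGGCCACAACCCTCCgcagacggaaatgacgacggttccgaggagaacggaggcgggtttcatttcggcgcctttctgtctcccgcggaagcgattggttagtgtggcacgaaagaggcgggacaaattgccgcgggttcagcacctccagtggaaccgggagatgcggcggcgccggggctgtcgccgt

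The shared stretch holds 1 CCAAT box, read as ATTGG at bases 86 to 90 of the Atm window and as CCAAT at bases 36 to 40 of the Npat window. Searched on both strands, CCAAT was found in the windows of 5 of the 8 genes (Atm, Mtor, Smg1, Atrip and Chek2), against 37.4% of all 32851 mouse windows. An E2F core, searched on both strands as the word TTCCCGC, where GG, GC or CG could also stand for the CC that follows TT, was found in 3 of the 8 (Atm, Chek1 and Chek2), against 9.6% of all windows. No match overlapped another (0). A match describes the letters of a window and shows no binding.

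Atm (ENSMUSG00000034218, chromosome 9, 53439149 to 53536740, minus strand, GRCm38) was not lower in the knockout libraries. It had 1959, 2220 and 1591 normalized counts in ATM KO 1 to 3, against 1978, 1613 and 1519 in vector control 1 to 3, from 1243 to 2290 reads in ATM KO libraries and 1446 to 2033 in vector control libraries. The highest library was ATM KO 2 and the lowest vector control 3, and the groups overlapped. The fold change, ATM KO over vector control, was 1.13 with a 95% interval of 0.81 to 1.56 (limma, log2 0.17, SE 0.19, adjusted p = 0.999). A fall of the mRNA below 0.81 of the control level lies outside this interval. The interval counts vector controls 2 and 3 as separate libraries, and with their mean as 1 library the SE was larger, 0.25. The log2 value was 0.061 without ATM KO 2, 0.30 without ATM KO 3, 0.28 without vector control 1, 0.093 without vector control 3 and 0.11 with vector controls 2 and 3 as 1 library. An exact permutation test over the 6 libraries gave p = 0.5 (2-sided), where 0.1 is the smallest p that 3 against 3 can give. A gene-level value does not show a small deletion or a frameshift, so this level does not check the labels.

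Npat (ENSMUSG00000033054, chromosome 9, 53537047 to 53574342, plus strand), across the shared promoter from Atm, had 2524, 3023 and 2406 normalized counts in ATM KO 1 to 3 and 2600, 2291 and 2116 in vector control 1 to 3. As with Atm, ATM KO 2 was the highest library and vector control 3 the lowest, and the groups overlapped. Its log2 fold change was 0.18 (SE 0.16, 95% interval -0.21 to 0.57, adjusted p = 0.999, limma), and it was 0.083 without ATM KO 2 and 0.11 without vector control 3. The annotated genes do not overlap, so their reads are not shared.

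The likeness of other genes to Atm was measured as the root-mean-square difference between profiles of log2(value + 1), each centred on its mean over the 6 libraries. Npat, at 0.076, stood at position 31 of 10027 genes and Mtor, at 0.084, at position 61. The 3 nearest were Zfp235, a zinc finger protein, at 0.030, Pcna, the sliding clamp of DNA polymerases, at 0.033, and Nfya, a subunit of the CCAAT-binding factor NF-Y, at 0.042. Pcna had 4011, 4451 and 3280 normalized counts in ATM KO 1 to 3 and 4111, 3140 and 3017 in vector control 1 to 3, high in the same 3 libraries as Atm. Nfya had 2594, 2973 and 2122 in ATM KO 1 to 3 and 2486, 2104 and 2104 in vector control 1 to 3. Zfp235, a low gene, averaged 85.9 ± 15.5 in ATM KO and 74.8 ± 8.66 in vector control cells (SD, n = 3 each). At such counts the sampling noise of reads is larger than 0.030, so its place at the head of the order is uncertain. A profile level in all libraries would stand at 0.201, with 1547 genes nearer. A value above that lies further from Atm than a level profile does. The other 8 genes described here lay above 0.201, between 0.209 for Atr and 0.416 for Prkdc. The measure counts the size of the swings as well as their shape. A gene above 0.201 can therefore still be high in the same libraries as Atm. All of these share the same 6 libraries, so the order describes these libraries.

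**Figure D1:**
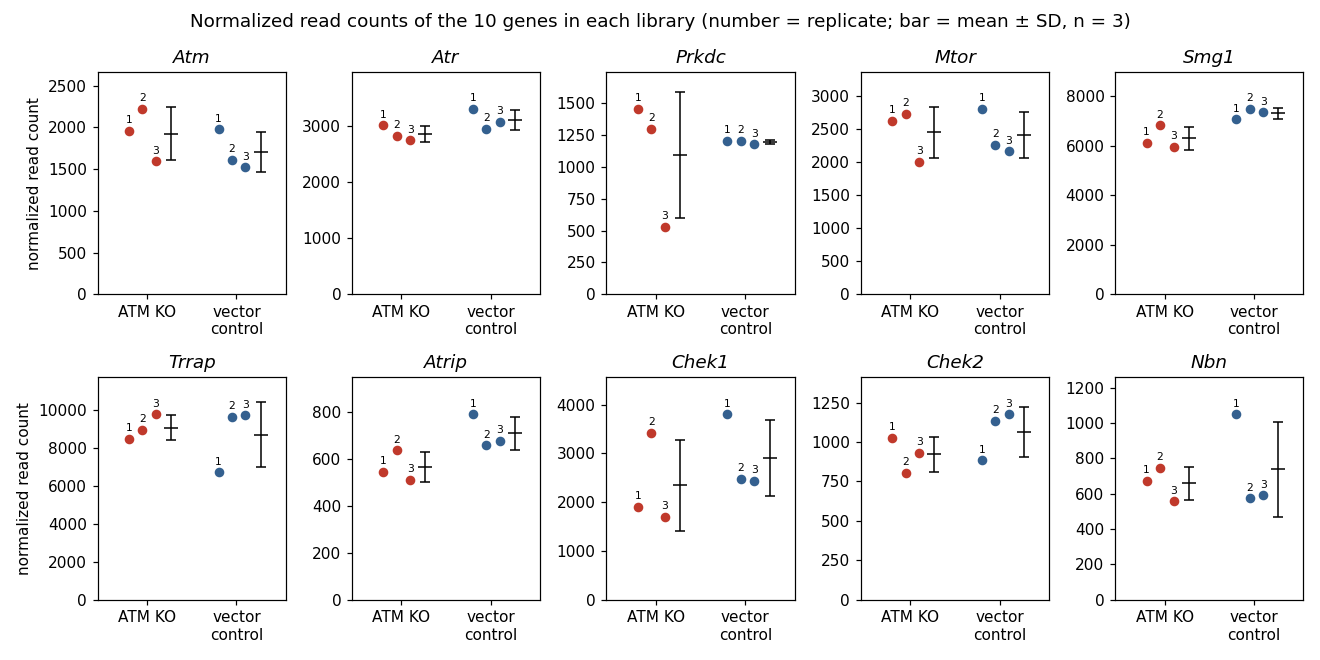
Normalized read counts (vertical axes, from 0) of the 10 genes in ATM KO (left, red) and vector control (right, blue) libraries, with replicate numbers above the points and the mean ± SD of 3 libraries as a bar. Smg1 and Atrip are the panels in which all ATM KO points lie below all control points, and Prkdc in ATM KO 3 (531) lies far below its other 5 values.

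No gene of the 10 differed between the groups by limma, edgeR or DESeq2 after adjustment over all 12149 genes tested (0 of 10 by each). Of all genes tested, limma and edgeR each called 0%, and DESeq2 called 0.691% (84 genes). At an unadjusted p under 0.05 each tool had 0 of the 10, against 4.16% of all genes for limma, 4.3% for edgeR and 5.9% for DESeq2. The median log2 fold change was -0.16 over the 10 genes, 3 of them positive and 7 negative, beside -0.01 over all genes, of which 51.4% were negative. The median deviation of the 10 genes from their means was 0.00 (-0.002), 0.077 and -0.23 in ATM KO 1 to 3 and 0.15, 0.024 and 0.074 in vector control 1 to 3. Without ATM KO 3, the low library, their median log2 fold change was -0.046, with 4 positive and 6 negative. The median SD within a group was 0.22 on the log2 scale for the 10 genes and 0.37 for all genes.

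**Figure D2:**
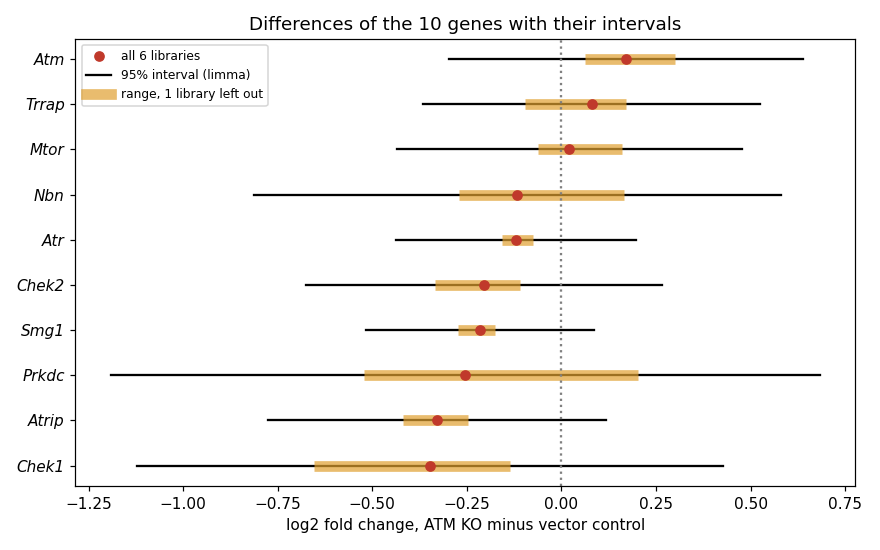
Log2 fold change (horizontal axis, ATM KO minus vector control) of each of the 10 genes, with the limma 95% interval as a black line and the range over fits that leave out 1 library as a yellow band. Every interval includes 0, from Atm at 0.17 to Chek1 at -0.35.

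Of the kinases, Atr had the narrowest spread. Atr (ENSMUSG00000032409, chromosome 9, 95857597 to 95951781, plus strand), the kinase of replication stress, had 3001, 2819 and 2735 normalized counts in ATM KO 1 to 3 and 3295, 2941 and 3062 in vector control 1 to 3. Only ATM KO 1 lay within the control values. Its log2 fold change was -0.12 (SE 0.13), and the 95% interval in folds ran from 0.74 to 1.15. Without vector control 1 it was -0.074. The antisense gene Gm16794, which shares 462 exonic bases with Atr, had 5.13 to 15.4 normalized counts in ATM KO and 2.10 to 12.6 in vector control libraries, far fewer than Atr.

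Atrip, the gene of ATR's partner, had its 3 lowest values in the ATM KO libraries. Atrip (ENSMUSG00000025646, chromosome 9, 109057933 to 109074124, minus strand) had 545, 636 and 511 normalized counts in ATM KO 1 to 3, against 789, 657 and 677 in vector control 1 to 3. The nearest values of the groups were 636 in ATM KO 2 and 657 in vector control 2, a gap smaller than the SD within either group (64.6 in ATM KO and 71.4 in vector control). The log2 fold change was -0.33 (SE 0.19, 95% interval -0.78 to 0.12, unadjusted p = 0.125, adjusted p = 0.999, limma), and it stayed between -0.42 and -0.25 when any 1 library was left out. On the same strand Atrip shares 1147 of its 7152 exonic bases (16.0%) with Trex1, the gene of a DNA exonuclease, which was not analysed here. How reads in those bases were assigned is not stated in the sources used here, so the Atrip values are uncertain to that extent.

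Smg1 was the other gene with no overlap. Smg1 (ENSMUSG00000030655, chromosome 7, 118131308 to 118243670, minus strand), whose kinase marks UPF1 for nonsense-mediated decay, had 6122, 6820 and 5962 normalized counts in ATM KO 1 to 3, against 7069, 7488 and 7356 in vector control 1 to 3. The log2 fold change was -0.22 (SE 0.12, 95% interval -0.52 to 0.09, unadjusted p = 0.132, adjusted p = 0.999, limma), a fold of 0.86. Without vector control 1, whose value was the lowest of the controls, the log2 fold change was -0.24 and the adjusted p was 0.405 (limma). That fit leaves vector controls 2 and 3, which nearly coincided, as the only controls, and adjusted p-values fell for other genes too. They were 0.405 for Chek2 and 0.495 for Atm (limma). With vector controls 2 and 3 as 1 library the log2 fold change of Smg1 was -0.20 (SE 0.18). Genes with ATM KO below every control made up 5.48% of all genes tested, and here they were 2 of 10.

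Prkdc stood out through a single library. Prkdc (ENSMUSG00000022672, chromosome 16, 15637866 to 15842235, plus strand) had 1454, 1297 and 531 normalized counts in ATM KO 1 to 3, and 1202, 1202 and 1176 in vector control 1 to 3. The controls were almost level (SD 15.2), ATM KO 1 and 2 lay above all of them, and ATM KO 3, with 415 reads, lay far below. With all libraries the log2 fold change was -0.25 (SE 0.39, adjusted p = 0.999, limma) and 0.20 without ATM KO 3, so its direction rests on that library. It was -0.52 without ATM KO 1 and -0.44 without ATM KO 2. ATM KO 3 also had the fewest reads of the series, 22494919, and the lowest summed value of 18 proliferation genes, 128218 against 167519 and 175709 in ATM KO 1 and 2 and 169025 to 191946 in vector control libraries, and the part of either in the Prkdc value was not tested. BALB/c mice are known to carry a Prkdc allele of reduced function.

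Mtor and Trrap did not differ beyond their spread. The direction of Trrap turned without 1 library, and that of Mtor turned without any of several. Mtor (ENSMUSG00000028991, chromosome 4, 148448611 to 148557683, plus strand) had 2617, 2721 and 2004 normalized counts in ATM KO 1 to 3 and 2799, 2260 and 2159 in vector control 1 to 3, a log2 fold change of 0.02 (SE 0.19, 95% interval -0.44 to 0.48). It was high in ATM KO 1 and 2 and vector control 1, as Atm was. Trrap (ENSMUSG00000045482, chromosome 5, 144767732 to 144859778, plus strand) had 8463, 8923 and 9756 in ATM KO 1 to 3 and 6698, 9612 and 9693 in vector control 1 to 3, with vector control 1 alone at the low end. Its log2 fold change was 0.08 (SE 0.18) and -0.10 without vector control 1, and that of Mtor ran from -0.06 without ATM KO 2 to 0.16 without ATM KO 3. The Mtor value was also negative without ATM KO 1 (-0.034), vector control 2 (-0.019) or vector control 3 (-0.052).

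The checkpoint kinases went different ways across the libraries. Chek1 (ENSMUSG00000032113, chromosome 9, 36708482 to 36727065, minus strand) had 1910, 3425 and 1706 normalized counts in ATM KO 1 to 3 and 3807, 2477 and 2438 in vector control 1 to 3. ATM KO 2 and vector control 1 were high, the 2 libraries at one end of the first principal component, and the groups overlapped through ATM KO 2. Chek1 had a log2 fold change of -0.35 (SE 0.32, 95% interval -1.12 to 0.43), with -0.15 without ATM KO 3 and -0.14 without vector control 1. Without ATM KO 2 it was -0.66 (unadjusted p = 0.0495, adjusted p = 0.988, limma). Chek2 (ENSMUSG00000029521, chromosome 5, 110839979 to 110874145, plus strand) had 1027, 802 and 933 in ATM KO 1 to 3 and 884, 1134 and 1176 in vector control 1 to 3. Those 2 libraries were its lowest values of their groups, the opposite of Chek1. Its log2 fold change was -0.21 (SE 0.20, 95% interval -0.68 to 0.27). It was -0.11 without ATM KO 2, -0.33 without vector control 1 and -0.13 without vector control 3.

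Nbn (ENSMUSG00000028224, chromosome 4, 15957925 to 15992589, plus strand) had 672, 746 and 558 normalized counts in ATM KO 1 to 3 and 1051, 574 and 592 in vector control 1 to 3. Vector control 1 stood above the other 5 values, and the remaining controls lay at the low end of the ATM KO range. The log2 fold change was -0.12 (SE 0.29, 95% interval -0.81 to 0.58) and 0.17 without vector control 1, so the sign rests on that library.

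**Figure D3:**
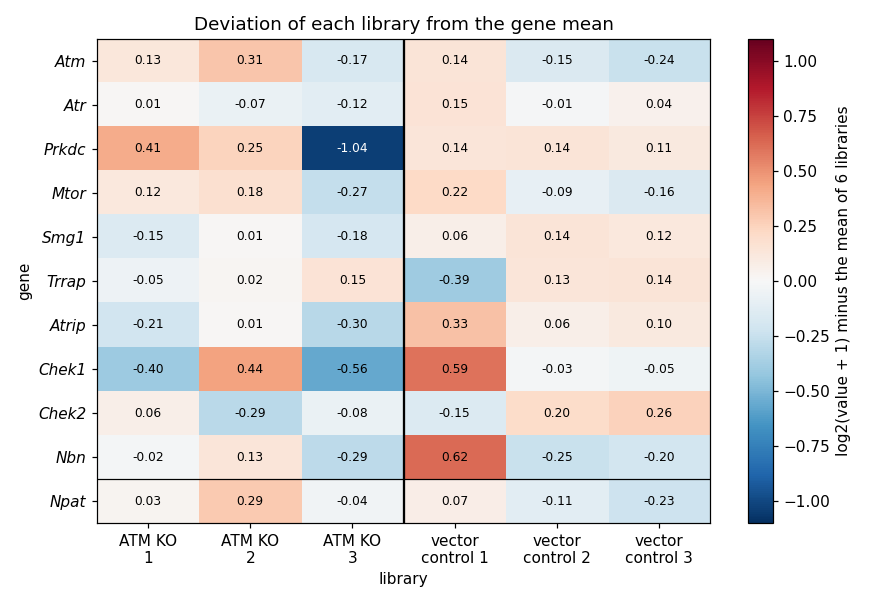
Deviation of each library (columns, ATM KO left of vector control) from the gene's mean over 6 libraries, in log2(value + 1), for the 10 genes and Npat (rows). Chek1 is at 0.44 in ATM KO 2 and 0.59 in vector control 1, Prkdc at -1.04 in ATM KO 3, and Nbn at 0.62 in vector control 1.

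Levels can be compared between genes only per length, so the normalized counts were divided by the exon length of GENCODE M21 in kilobases. Chek1 had the highest level per kilobase, 506 ± 203 in ATM KO and 627 ± 168 in vector control cells, followed by Trrap, 434 ± 31.4 in ATM KO and 416 ± 81.8 in vector control cells (SD, n = 3 each). In ATM KO cells the ranges of these 2 overlapped, while in vector control cells Chek1 lay above Trrap in every library. Chek2, Smg1, Nbn and Mtor came next, between 242 and 307 in ATM KO and 238 and 355 in vector control cells, and each overlapped its neighbour in that order in both groups. Atm, at 186 ± 30.6 per kilobase in ATM KO and 165 ± 23.5 in vector control cells, overlapped Mtor in ATM KO cells and lay below it in every vector control library. Atr followed, at 121 ± 5.76 in ATM KO and 131 ± 7.62 in vector control cells, below Atm in every library of each group. This order rests on the exon lengths used, 23629 bases for Atr and 10338 for Atm. Before that division Atr had more normalized counts than Atm, with means of 2852 against 1923 in ATM KO and 3099 against 1703 in vector control cells. Atrip (78.8 ± 9.03 in ATM KO and 98.9 ± 9.98 in vector control cells) and Prkdc (82.9 ± 37.4 in ATM KO, 90.5 ± 1.16 in vector control) were the lowest, and stood in the opposite order in the 2 groups, with overlapping ranges in ATM KO cells. The median of all tested genes with an exon length was 216 per kilobase, so Atm, Atr, Atrip and Prkdc lay below it. Exon lengths join all annotated isoforms, which lowers the level of genes with long rare exons.

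**Figure D4:**
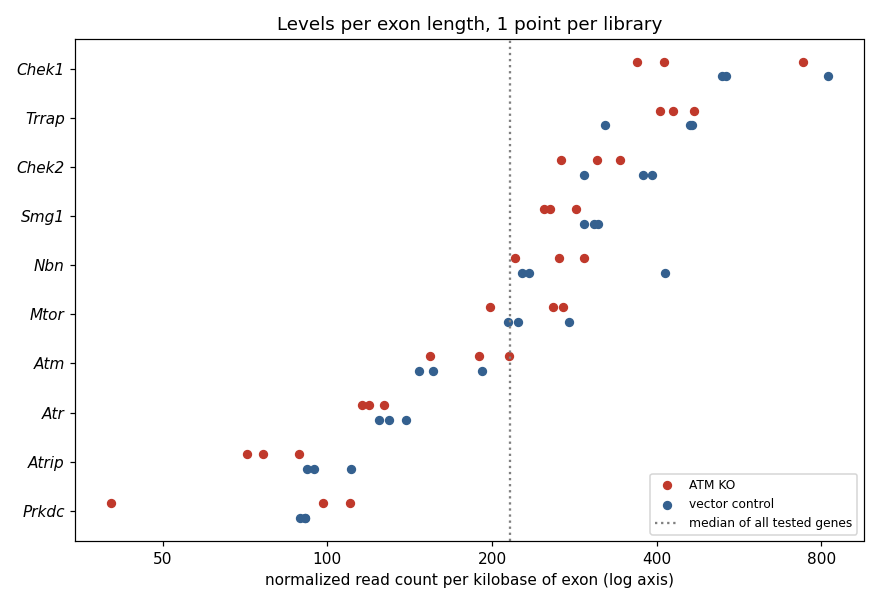
Normalized read count per kilobase of exon (horizontal log axis) of the 10 genes, 1 point per library, ATM KO (red) above vector control (blue), with the median of all tested genes (216) as a dotted line. Chek1 and Trrap lie to the right, and Atm, Atr, Atrip and Prkdc to the left of that line in all 6 libraries.

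The partners, activators and targets of these kinases were read from 11 lists, in which 111 of 113 genes were among those tested. None passed the threshold by limma, edgeR or DESeq2 (0 of 111), against 0%, 0% and 0.691% of all genes tested. An unadjusted p under 0.05 was found for 1 by limma, 1 by edgeR and 3 by DESeq2, against 4.16%, 4.3% and 5.9% of all genes. Negative log2 fold changes were found for 74 genes and positive ones for 37, with a median of -0.09, where 51.4% of all genes were negative. Without ATM KO 3 the counts were 60 negative and 51 positive (median -0.025), and without vector control 1 they were 62 and 49 (median -0.057). In 6 genes (Timeless, Ing3, Ruvbl2, Hsp90ab1, Ccna2 and Plk1) every ATM KO library lay below every control, against 5.48% of all genes, and in 1 (Kat2b) every one lay above, against 5.7%.

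Among the activators of ATM, all 4 had negative values (median -0.16, and -0.11 without ATM KO 3). Without ATM KO 2, 3 were negative and 1 positive (median -0.23). ATM KO 3 stood apart in this list: its genes deviated by a median of -0.29 there, by 0.013 and 0.055 in ATM KO 1 and 2 and by 0.079 to 0.10 in vector control libraries. Mre11a, the nuclease that forms a complex with NBS1, had 3910 ± 925 normalized counts in ATM KO and 4843 ± 793 in vector control cells (SD, n = 3 each, log2 -0.33, SE 0.23, and -0.12 without ATM KO 3 or -0.20 without vector control 1). Rad50, the third subunit, had 2814 ± 494 in ATM KO and 3141 ± 354 in vector control cells (log2 -0.17, and -0.013 without ATM KO 3), and Atmin, an ATM cofactor, 1069 ± 85.9 in ATM KO and 1190 ± 142 in vector control cells. The groups overlapped in all 4 genes. The mediators that gather at breaks had 4 positive and 9 negative members (median -0.06), with Mdc1, which binds phosphorylated histone H2AX, at 3681 ± 575 in ATM KO and 4881 ± 1935 in vector control cells, and Brca1 at 3043 ± 674 in ATM KO and 3847 ± 620 in vector control cells. Rif1, which protects broken ends from resection, had 3958 ± 1313 in ATM KO and 4049 ± 1047 in vector control cells, and Babam1, a BRCA1-A complex subunit, 1861 ± 65.5 in ATM KO and 2177 ± 226 in vector control cells.

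Among the ATR activators and fork protection genes 6 were positive and 7 negative, with a median of 0.00 (-0.003), which was 0.16 with 11 positive without ATM KO 3 and 0.32 with 9 positive without vector control 1. Topbp1, which activates ATR, had 12560 ± 2890 normalized counts in ATM KO and 11640 ± 677 in vector control cells. Timeless, a fork protection protein, was lower in every ATM KO library, at 1823 ± 389 in ATM KO and 2314 ± 121 in vector control cells (log2 -0.37, SE 0.20, unadjusted p = 0.114, adjusted p = 0.999, limma, and -0.18 without ATM KO 3). Rpa1, the large subunit of the single-strand binding protein, had 5288 ± 2409 in ATM KO and 6065 ± 2076 in vector control cells, and Etaa1, another ATR activator, 557 ± 145 in ATM KO and 624 ± 23.9 in vector control cells. The median deviation of this list was 0.10, 0.28 and -0.41 in ATM KO 1 to 3 and 0.49, -0.27 and -0.29 in vector control 1 to 3. As for Chek1, ATM KO 2 and vector control 1 were the high libraries, while Chek1 was at -0.40 in ATM KO 1, where the list was not low.

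The end-joining partners of DNA-PK had 2 positive and 6 negative of 8 members (median -0.15, and -0.052 without vector control 1). Lig4, the ligase of this pathway, had the largest absolute log2 fold change of the 111 genes by limma, 0.63 (SE 0.82, adjusted p = 0.999). By DESeq2 its value was 0.16, smaller in size than that of Cdc25c (-0.59). Lig4 had 360, 499.8 and 166 normalized counts in ATM KO 1 to 3 and 703, 105 and 109 in vector control 1 to 3. It was high in ATM KO 2 and vector control 1, and its value ran from 0.16 without vector control 2 to 1.52 without vector control 1. Xrcc5 and Xrcc6, which encode the Ku subunits, had 2163 ± 182 and 1922 ± 529 normalized counts in ATM KO cells, against 2442 ± 325 and 2077 ± 289 in vector control cells. The DNA polymerase gene Polm had 984 ± 250 in ATM KO and 1243 ± 349 in vector control cells. Of 14 targets of the checkpoint kinases 6 were positive and 8 negative (median -0.01). Cdc25c, a phosphatase that starts mitosis and is inhibited by CHK1 and CHK2, had 1009 ± 154 in ATM KO and 1521 ± 408 in vector control cells (log2 -0.56, SE 0.26, unadjusted p = 0.0709 by limma and 0.0441 by DESeq2, where the adjusted p was 0.808). Vector control 1 (1051) lay within the ATM KO values of 841.5 to 1144, and vector controls 2 and 3 (1777 and 1735) lay above them. The log2 value was -0.81 without vector control 1, -0.43 without vector control 2 and -0.44 (SE 0.31) with vector controls 2 and 3 as 1 library. Cdk1, the mitotic kinase, had 6567 ± 905 in ATM KO and 7327 ± 336 in vector control cells, and Trim28, a chromatin corepressor that ATM phosphorylates, 11100 ± 1059 in ATM KO and 11180 ± 1069 in vector control cells.

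For the relatives outside break signalling, the mTOR list had 7 positive and 5 negative members (median 0.01), with Rictor, the mTORC2 subunit, at 4526 ± 1095 normalized counts in ATM KO and 5213 ± 1962 in vector control cells, and Rheb, the GTPase that activates mTORC1, at 3431 ± 276 in ATM KO and 3369 ± 554 in vector control cells. Rptor, the mTORC1 subunit, had 2772 ± 517 in ATM KO and 3111 ± 84.7 in vector control cells, and Deptor, an mTOR inhibitor, 1181 ± 396 in ATM KO and 1360 ± 48.7 in vector control cells. Nonsense-mediated decay factors had 2 positive and 7 negative members (median -0.08), with 5 positive without ATM KO 3 (median 0.031) and 6 without vector control 1 (median 0.080). Upf1, the helicase that SMG1 phosphorylates, had 4333 ± 1278 in ATM KO and 4719 ± 2078 in vector control cells. Smg9, a subunit of the SMG1 complex, had 830 ± 53.6 in ATM KO and 970 ± 162 in vector control cells. Upf3b, which links the exon junction complex to decay, had 667 ± 135 in ATM KO and 508 ± 182 in vector control cells (log2 0.43, SE 0.30), and its value was 0.28 without ATM KO 2, 0.71 without vector control 1 and 0.25 without vector control 2.

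The TRRAP complexes had 3 positive and 8 negative members (median -0.06). With 1 library left out the median ran from -0.20 without vector control 1 (4 positive) to 0.091 without ATM KO 2 (6 positive). Ing3, a subunit of the NuA4 acetyltransferase complex, had 499.8 ± 34.0 normalized counts in ATM KO and 632 ± 24.0 in vector control cells with no overlap (log2 -0.34, SE 0.17, unadjusted p = 0.0887 by limma and 0.03 by DESeq2, where the adjusted p was 0.679). The acetyltransferase gene Kat2b also had no overlap, at 1461 ± 82.3 in ATM KO and 1285 ± 11.1 in vector control cells (log2 0.18, SE 0.14). Ep400, a chromatin remodelling ATPase, had 8486 ± 441 in ATM KO and 9181 ± 985 in vector control cells, and the acetyltransferase gene Kat2a 3199 ± 1122 in ATM KO and 3871 ± 1266 in vector control cells. Of the chaperones that fold and assemble these kinases, 3 were positive and 6 negative (median -0.05). Ruvbl2, an ATPase of the assembly complex, had 4601 ± 894 in ATM KO and 5921 ± 415 in vector control cells (log2 -0.38, SE 0.18, unadjusted p = 0.0805, limma, and -0.22 without ATM KO 3), and Hsp90ab1 127800 ± 5653 in ATM KO and 141500 ± 909 in vector control cells (log2 -0.15, SE 0.12, and 0.14 under quantile normalization). Hsp90aa1 had 6348 ± 2313 in ATM KO and 6203 ± 2036 in vector control cells.

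The proliferation genes, listed because the levels of checkpoint genes vary over the cell cycle, had 3 positive and 15 negative of 18 members (median -0.20). ATM KO 3 was the low library: the genes deviated by a median of -0.38 there, by 0.019 and 0.084 in ATM KO 1 and 2 and by 0.064 to 0.17 in vector control libraries. Without it 7 were positive and 11 negative (median -0.091). Ccna2, which encodes cyclin A2, had 12190 ± 1275 normalized counts in ATM KO and 16310 ± 567 in vector control cells with no overlap (log2 -0.42, SE 0.13, unadjusted p = 0.0171 and adjusted p = 0.999 by limma, and adjusted p = 0.320 by DESeq2). Without ATM KO 3 the log2 fold change of Aurka was -0.27 and that of Top2a -0.066, against -0.48 and -0.23 with all libraries. Aurka had 4258 ± 1134 in ATM KO and 5782 ± 358 in vector control cells, Mki67 23650 ± 1430 in ATM KO and 29800 ± 8634 in vector control cells, and Top2a 42330 ± 7821 in ATM KO and 50440 ± 13720 in vector control cells. Mki67 in vector control 1 (19830) lay below every ATM KO library, against 34760 and 34810 in vector controls 2 and 3. Top2a had 34610 in vector control 1, against 58330 and 58400. Without vector control 2 the log2 value was -0.15 for Mki67 and -0.105 for Top2a. The values of the proliferation genes stand beside the negative ones of Chek1, Atrip and Timeless, and their part in them was not tested.

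**Figure D5:**
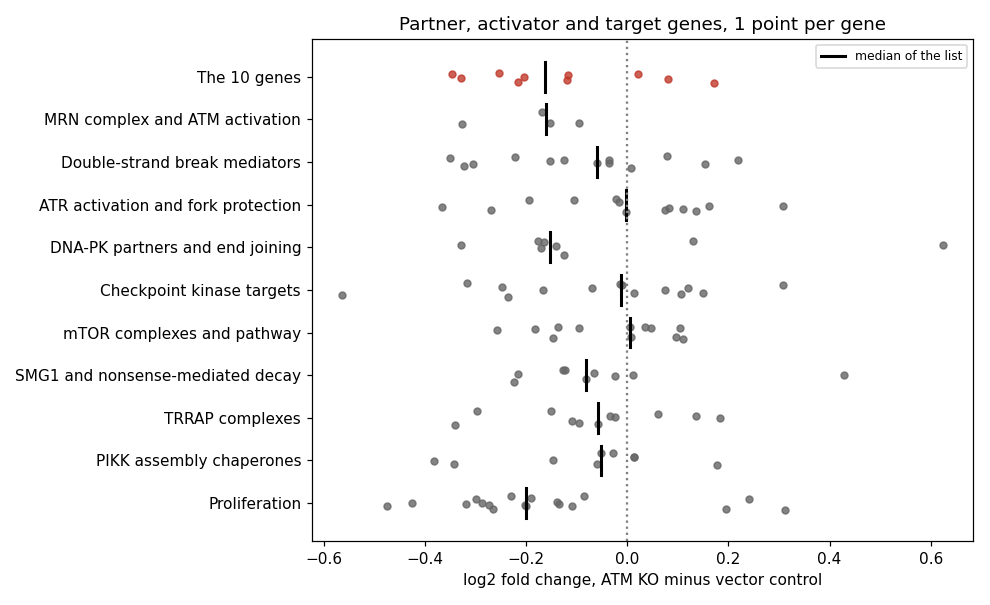
Log2 fold change (horizontal axis, ATM KO minus vector control) of the 10 genes (red) and of the tested genes of each list (grey), 1 point per gene, with the list median as a black bar. The medians lie between -0.20 for the proliferation genes and 0.01 for the mTOR list.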

How the data were processed

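Per the submitters' processing notes the tools included STAR, HTSeq, DESeq2, SAMtools, cutadapt and Trim Galore, and the builds were GRCm38 and mm9, with no versions, order or roles. Each deposited file holds 1 signal value per gene, a read count scaled by the authors with a constant for each library: 100% of the values were whole multiples of that library's step within 0.01 reads. The filter that left these genes and the strand setting are not stated in the sources used here. Of the gene IDs, 98.8% are in GENCODE M21 on GRCm38, the source of the coordinates and exon lengths.

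Genes whose mean over the 6 libraries reached 10 were tested with limma 3.58.1 (R 4.3.3) on log2(value + 1), which understates changes of low genes, with a mean-variance trend, ATM KO minus vector control, 2-sided, and Benjamini-Hochberg adjustment over all 12149 genes at 0.05. All 10 genes passed that filter. As alternatives, whole reads went into edgeR 4.0.16 (quasi-likelihood, TMM) and DESeq2 1.42.0. The fits were tested on simulated data drawn independently for each library. That check does not cover structure such as the near-coinciding vector controls 2 and 3. Genes named beside the 10 are, in each list, the 2 with the highest mean and the 2 with the smallest limma p, any call, and the 3 most like Atm among genes with a mean of at least 50, leaving out predicted and clone-named symbols. Lig4 and the genes named because their groups do not overlap, such as Plk1, were chosen after their values were seen. The 10 genes and the lists were chosen with earlier results of these data known. Paxx and Prr5l were not analysed here, and 1 gene that this rule names is not reported here.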

Additional observations from a re-analysis of the deposited data

How the results depend on the processing

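None of the 10 genes passed the threshold under any of the 16 alternatives, nor did any of the 111 partner genes (0). Over all genes 0 passed under every alternative except DESeq2 on recovered reads, which called 84. The log2 fold change of Atm stayed positive, between 0.06 and 0.30 when 1 library was left out. Of the 10 genes, 6 kept their direction under all alternatives. With 1 library left out, those that did not ranged from -0.52 to 0.20 for Prkdc, -0.062 to 0.16 for Mtor, -0.096 to 0.17 for Trrap and -0.27 to 0.17 for Nbn. Of the 40 other named genes, 29 kept theirs, and the same ranges were -0.29 to 0.20 for Rif1, -0.032 to 0.29 for Topbp1, -0.58 to 0.16 for Rpa1, -0.34 to 0.073 for Xrcc6, -0.087 to 0.067 for Trim28, -0.52 to 0.045 for Rictor, -0.049 to 0.17 for Rheb, -0.30 to 0.26 for Upf1, -0.52 to 0.018 for Kat2a and -0.25 to 0.30 for Hsp90aa1. Under quantile normalization the signs of Trim28 (0.022) and Hsp90ab1 (0.14) turned, and the cause was not tested. The replicate numbers did not pair the libraries: same-numbered deviations correlated at -0.02, -0.58 and 0.53. With the replicate block Atm stayed at 0.17, 0 genes passed, and 296 instead of 505 had an unadjusted p under 0.05. Without vector control 1 that number was 1778, in a fit whose only controls were the nearly coinciding vector controls 2 and 3. Their small difference then stands for the spread of the controls. With vector controls 2 and 3 averaged into 1 library, an alternative chosen after the data were seen, Atm was at 0.11, 221 genes had an unadjusted p under 0.05, and the signs of Mtor (-0.036), Rictor (0.037), Rheb (-0.030) and Hsp90aa1 (-0.11) turned. The alternatives for Zfp235, Nfya and Lig4 were also added then. Between 399 and 9936 reads lay behind each value of the 10 genes.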
